A study of Homo sapiens with 9 samples.

Results

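The genes described here are 32 known targets of the tumour suppressor p53, chosen by name and sorted by role into 9 genes of cell cycle arrest, 10 of cell death, 4 of DNA repair, 6 of metabolism, redox control and autophagy, and 3 of feedback and signalling. Their transcripts were followed in AGS cells that had lost most of their HIF1A transcript. AGS is an established human gastric adenocarcinoma line. The HIF- group (HIF-KD in the labels) was AGS stably transduced by lentivirus with a short hairpin RNA against HIF-1α, and the SCR group (Scrambled) was AGS with a control hairpin handled the same way. The paper gives normal oxygen for its growth assay of these cells, and its array methods state no oxygen level. The labels name no further treatment of either group. Each group had 3 biological replicates. The sources do not say whether the replicates of a group were independent transductions or cultures of 1 transduced line. In the second case the p-values measure the spread between cultures and not the spread between independent knock-downs. Replicates 1 and 2 gave 1 HIF- and 1 SCR array each on HumanRef-8 BeadChips, and replicate 3 gave 3 HIF- and 2 SCR technical arrays on a HumanHT-12 BeadChip. Of the 32 targets, 30 had a probe with their symbol on both chip versions, and 26 of those passed the filter on low signal and were tested, among 12195 genes and unnamed probes in all. BTG2 and FDXR were not analysed here.

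p53 is a transcription factor that is made continuously and kept low by MDM2, a ubiquitin ligase that marks it for destruction and is itself a p53 target. DNA damage, oncogene activity or ribosomal stress releases p53 from MDM2. It then binds DNA at elements built from a pair of 10-base half-sites and raises genes that stop the cell cycle, repair DNA, adjust metabolism or kill the cell. Since p53 is mainly controlled as a protein, its activity is read in practice from its targets. HIF-1α is the oxygen-regulated subunit of the transcription factor HIF-1.

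Values are normalized log2 signals of the brightest probe of each gene, and a difference is HIF- minus SCR within a replicate, with technical arrays averaged first, so that 1 unit is a 2-fold difference. A probe counts as detected on an array at a detection p under 0.01, and 34.1% to 54.9% of the probes of a HIF- array were detected, against 33.6% to 55.6% on an SCR array. HIF1A, the target of the hairpin, differed by -2.67, -2.24 and -2.01 in replicates 1, 2 and 3. Of the 6 epithelial markers, EPCAM, CDH1, KRT8, KRT18 and KRT19 were detected on all 9 arrays, and CLDN4 on 4 of 5 HIF- and 3 of 4 SCR arrays. Of 9 fibroblast and leukocyte markers, 6 were detected on none, while COL1A1 was detected on 5 of 5 HIF- and 3 of 4 SCR arrays, CD14 on 1 HIF- array and CD79A on 2 SCR arrays. All 6 epithelial markers and 4 of the 9 fibroblast and leukocyte markers were above the filter and tested, and none of these was called between the groups. In bulk RNA of this kind, fewer cells that express a gene and less of its RNA per cell cannot be told apart.

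Few p53 targets, and few of all genes, were called between HIF- and SCR cells. None of the 26 tested targets was called higher and none lower by limma at an adjusted p under 0.05, against 0.0738% of all genes tested called higher (9 genes) and 0.041% called lower (5 genes). At an unadjusted p under 0.05, GDF15 and CDKN1A were higher (7.69% of the 26) and no target was lower, against 3.41% of all genes higher and 4.13% lower. The second way of calling, a rank rule, asked that a gene stand among the top 10% of absolute scaled differences in every replicate, each with the same sign. It called 1 target, GDF15, as higher and 0 as lower, against 0.41% of all genes higher and 0.369% lower. With 26 targets, each of these shares of all genes corresponds to about 1 target or fewer. Counts of 0, 1 or 2 targets are too small to be read as a difference from them.

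The typical target lay slightly above 0. The median difference of the 26 targets was 0.08, against -0.01 over all genes tested, and it was 0.07, 0.11 and 0.14 in replicates 1, 2 and 3, with medians of all genes between -0.02 and -0.01. Of the 26, 18 had a mean difference above 0 (69.2%, against 48.3% of all genes) and 8 below. The sign held in every replicate for 7 targets above 0 (26.9%, against 14.5% of all genes) and for 2 below 0 (7.69%, against 17.4%). By the probe used, the 7 were GDF15, CDKN1A, SFN, BBC3, TNFRSF10A, AEN and EPHA2, and the 2 were TIGAR and TP53INP1. Left without GDF15 and CDKN1A, which is a list trimmed after its values were seen, the median was 0.06. The targets also varied more from replicate to replicate than most genes: the median over targets of the SD between replicates was 0.31, against 0.22 over all genes.

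**Figure D1:**
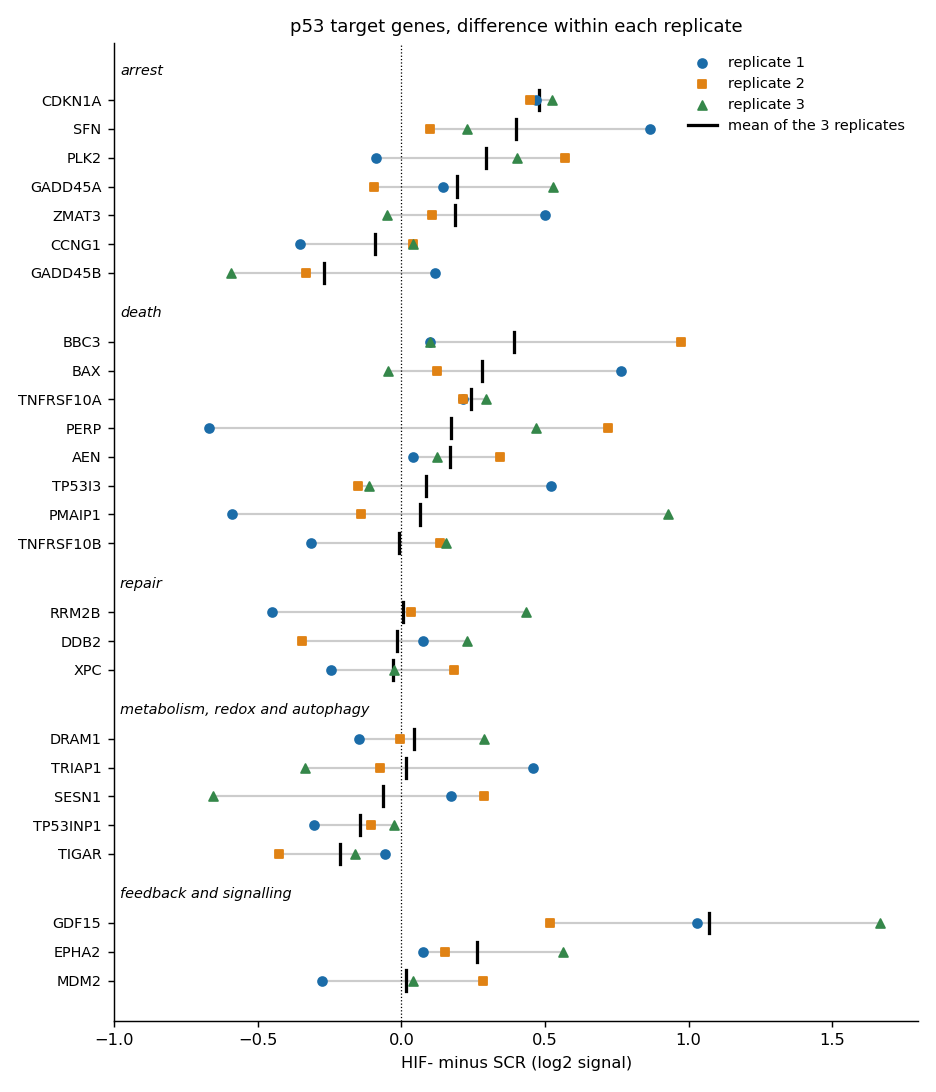
Difference between HIF- and SCR cells in log2 signal (x axis) for each of the 26 tested p53 targets (rows, by role and then by mean). Points are the 3 replicates, each with its own symbol and colour, grey lines span them and black bars are their means. GDF15 reached the farthest to the right, with 1.66 in replicate 3, the 3 points of CDKN1A nearly coincide between 0.45 and 0.52, and PERP and PMAIP1 have points on both sides of 0.

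GDF15 had the largest difference of the 26 tested targets. It encodes a secreted protein of the TGF-β family that rises in many kinds of cell stress and is a target of p53 and also of ATF4, the transcription factor of the integrated stress response. Its log2 signal was 10.37, 10.53 and 11.14 in HIF- cells of replicates 1, 2 and 3, against 9.35, 10.01 and 9.47 in SCR cells. All HIF- values were above all SCR values. The difference was 1.03, 0.52 and 1.66 in the 3 replicates, a mean of 1.07 (standard error 0.21) or 2.1-fold, with an adjusted p of 0.17 from limma (95% interval 0.58 to 1.56). Ordered from the highest difference, GDF15 had rank 17 of 12195, and 95.6% of genes had a smaller SD between replicates than its 0.57. GDF15 was thus high in each replicate but by amounts that differed widely. Without replicate 3 the mean difference was 0.77, and without replicate 2 it was 1.35.

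CDKN1A followed, and its replicates agreed more closely. It encodes p21, the inhibitor of cyclin-dependent kinases through which p53 halts the cell cycle. Its log2 signal was 12.01, 11.26 and 10.37 in HIF- cells, against 11.54, 10.81 and 9.85 in SCR cells of the same replicates. HIF- was the higher of the pair in each replicate. The signals of the groups overlap over the replicates, since the level differed between replicates in both groups. The difference was 0.47, 0.45 and 0.52, a mean of 0.48 (standard error 0.12) or 1.39-fold, with an adjusted p of 0.335 from limma (95% interval 0.20 to 0.76). The SD between replicates was 0.04, and 2.78% of genes had a smaller one. The standard error is larger than this SD alone would give, since limma moves each gene's variance towards that of all genes. CDKN1A had rank 240 of 12195 by difference. Another CDKN1A probe on both chips had differences of 0.74, 0.66 and 0.19, and was detected on none of the 5 arrays of replicate 3.

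Of GDF15 and CDKN1A the 250 bases before the transcription start are shown, as RefSeq gives them for GRCh38.p14, because they are the targets with the lowest p-values and because the factor lost in HIF- cells binds DNA at a short core. Capitals mark that core, the letters ACGTG or GCGTG read on either strand (CACGT or CACGC on the other), with overlapping matches all counted. The sequences run 5′ to 3′ in the direction of the gene.
GDF15 (chr19:18385908-18386157, + strand): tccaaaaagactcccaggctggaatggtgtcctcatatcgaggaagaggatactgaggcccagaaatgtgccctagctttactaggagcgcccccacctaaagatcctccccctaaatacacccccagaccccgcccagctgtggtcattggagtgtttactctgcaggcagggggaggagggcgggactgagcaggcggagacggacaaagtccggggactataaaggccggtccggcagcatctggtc
CDKN1A (chr6:36678464-36678713, + strand): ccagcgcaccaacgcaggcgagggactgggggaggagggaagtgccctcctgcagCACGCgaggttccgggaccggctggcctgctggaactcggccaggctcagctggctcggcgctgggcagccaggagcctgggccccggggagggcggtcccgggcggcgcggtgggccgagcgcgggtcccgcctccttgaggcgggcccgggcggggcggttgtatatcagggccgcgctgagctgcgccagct
The 300-base window from 250 bases before to 50 after the start held 1 core in CDKN1A and 0 in GDF15. Of 35116 such windows over the genome 48.4% held a core, and of the 37 windows that belong to 26 of the p53 targets, 56.8% did. A match is a description of these letters and not evidence of binding.

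**Figure D2:**
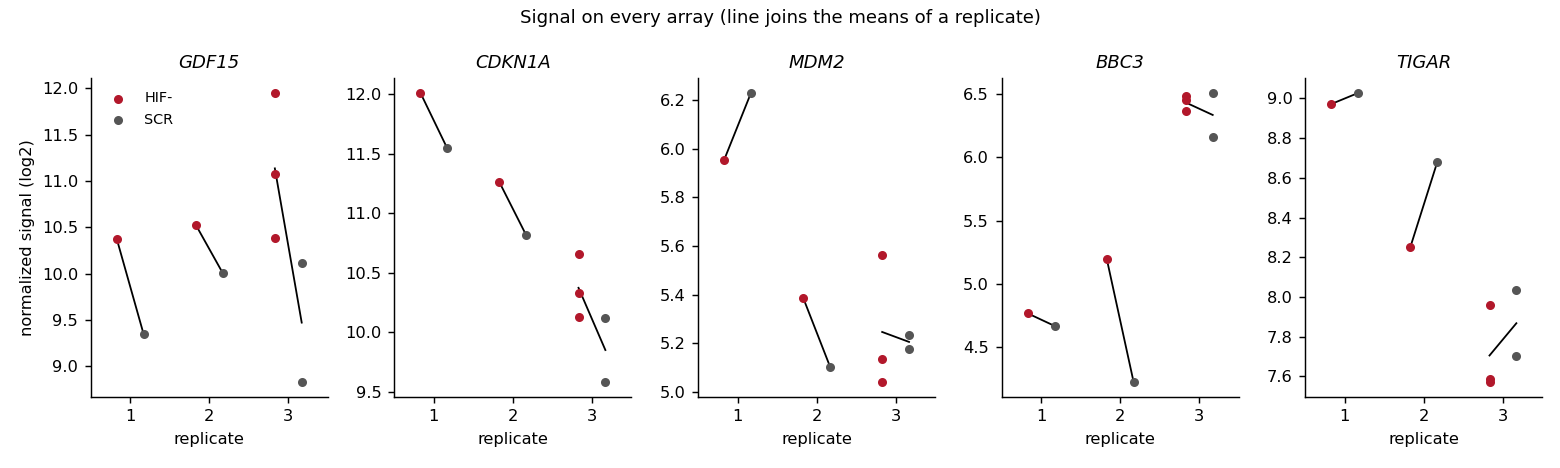
Normalized log2 signal (y axis, a separate scale for each gene) on every array for GDF15, CDKN1A, MDM2, BBC3 and TIGAR by replicate (x axis), HIF- in red on the left and SCR in grey on the right of each pair. Lines join the means of a replicate, and replicate 3 shows 3 HIF- and 2 SCR technical arrays. HIF- lies above SCR in all 3 replicates for GDF15 and CDKN1A and below it in all 3 for TIGAR.

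The technical arrays of replicate 3 differed among themselves for several targets. GDF15 measured 11.95, 10.38 and 11.07 on the HIF- arrays, against 8.83 and 10.12 on the SCR arrays. The lowest HIF- array was above the highest SCR array by less than the arrays of either group differed from each other. The range of its HIF- arrays, 1.57, was wider than that of 99.7% of genes, and the range of its SCR arrays, 1.29, than that of 99.8%. PMAIP1 (6.62, 5.82 and 6.18 on HIF- arrays, against 4.57 and 5.99 on SCR arrays), EPHA2 (8.23, 7.03 and 7.78, against 6.69 and 7.55) and GADD45A (8.53, 7.36 and 7.70, against 7.02 and 7.65) also had the first HIF- array highest and the first SCR array lowest. Unlike those of GDF15, their HIF- and SCR arrays overlapped. These 3 were picked after their values were seen, and PMAIP1 was not detected on the first SCR array. CDKN1A did not share this order: it measured 10.66, 10.33 and 10.13 on HIF- arrays, against 10.12 and 9.58 on SCR arrays, where the first SCR array was the higher. Over the 26 targets the median SD between technical arrays was 0.253 in HIF- and 0.23 in SCR, against 0.136 and 0.108 over all genes tested. What set these arrays apart was not tested.

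**Figure D3:**
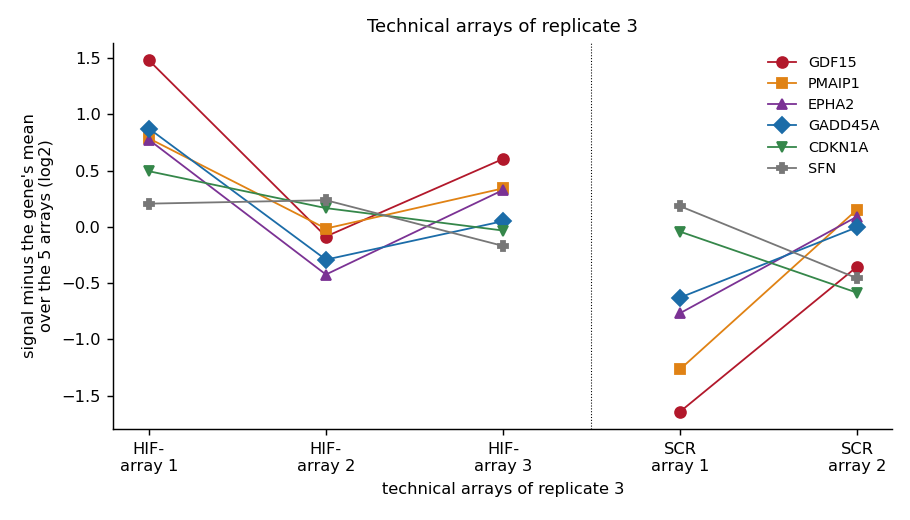
Log2 signal of 6 p53 targets on the 5 technical arrays of replicate 3 (x axis, HIF- arrays left of the dotted line and SCR arrays right), each gene set to its mean over the 5 arrays (y axis). GDF15, PMAIP1, EPHA2 and GADD45A are lowest on the first SCR array and highest on the first HIF- array, while CDKN1A and SFN are not lowest there.

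Among the arrest genes, 7 of 9 were tested, with a median difference of 0.19 and with medians of 0.14, 0.10 and 0.23 in the 3 replicates. SFN, which encodes 14-3-3σ, a protein that holds cyclin B and CDK1 in the cytoplasm, differed by 0.87, 0.10 and 0.23. Most of its mean of 0.40 came from replicate 1, and its adjusted p was 0.661 from limma. PLK2, a kinase of the centriole cycle, differed by -0.09, 0.57 and 0.40, and was detected on 3 of 5 HIF- and 1 of 4 SCR arrays. GADD45A, which binds PCNA and p21 and takes part in the G2 checkpoint, differed by 0.14, -0.10 and 0.53. Its relative GADD45B differed by 0.12, -0.33 and -0.59, the lowest mean of any target at -0.27. PLK2, GADD45A and GADD45B changed sign between replicates. ZMAT3, a zinc finger protein that binds RNA, differed by 0.50, 0.10 and -0.05, and its probes on the HumanHT-12 chip alone by -0.42 and -0.22 in replicate 3. CCNG1, which encodes cyclin G1, differed by -0.35, 0.04 and 0.04. PLK3 was under the filter and was detected on none of the HIF- arrays and on 1 of 4 SCR arrays, so no difference is given.

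Among the death genes, 8 of 10 were tested. The median difference was 0.17, with medians of 0.07, 0.17 and 0.14 in the 3 replicates, and 7 of the 8 had a mean above 0. BBC3, which encodes PUMA, a BH3-only protein that unleashes BAX, had the largest mean among those of 1 sign. Its log2 signal was 4.77, 5.20 and 6.43 in HIF- cells, against 4.67, 4.22 and 6.34 in SCR cells. The difference of 0.10, 0.97 and 0.10 came almost wholly from replicate 2, in which the SCR array was the only array of the series without a detected BBC3 signal. The mean was 0.39 (standard error 0.19) with an adjusted p of 0.684 from limma, and 0.10 without replicate 2. It was 0.17 with normexp, 0.20 with scaling to a common median and 0.18 with the authors' processed values. BAX, which perforates the outer mitochondrial membrane, differed by 0.76, 0.12 and -0.05. A second BAX probe above the filter differed by 1.31, 0.23 and -0.08, so both had their largest difference in replicate 1 and a value just below 0 in replicate 3. PMAIP1, which encodes the BH3-only protein NOXA, differed by -0.59, -0.14 and 0.93. Its probe was detected on 4 of 5 HIF- and 2 of 4 SCR arrays, and on neither array of replicate 2, so these values are partly differences from background and not exact sizes. PERP, a membrane protein of desmosomes needed for p53-dependent death of some cells in mice, differed by -0.67, 0.72 and 0.47, with 98.8% of genes having a smaller SD.

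Both death receptors of the TRAIL ligand among the targets were tested. TNFRSF10A, which encodes receptor DR4, measured 7.65, 7.43 and 6.98 in HIF- cells, against 7.44, 7.22 and 6.68 in SCR cells. It was higher in HIF- in each replicate by nearly the same amount, 0.21, 0.21 and 0.29, a mean of 0.24 with an adjusted p of 0.684 from limma. TNFRSF10B, which encodes DR5, differed by -0.31, 0.13 and 0.15, with a mean of -0.01, and its other probes above the filter had means of -0.14 and -0.04. AEN, a nuclease of apoptotic cells, differed by 0.04, 0.34 and 0.12. Another AEN probe, on the HumanHT-12 chip alone and detected on all 5 arrays of replicate 3, differed by -0.13 there, so the sign of AEN in that replicate depended on the probe. TP53I3, an oxidoreductase linked to reactive oxygen in dying cells, differed by 0.52, -0.15 and -0.11. FAS, the receptor of FAS ligand, and PHLDA3, an inhibitor of AKT, were under the filter and were detected on none of the 9 arrays.

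Of the 4 repair genes 3 were tested, and none of the 3 kept its sign over the replicates. Their median was -0.01, with medians of -0.24, 0.03 and 0.23 in the 3 replicates. XPC, which finds distorted DNA for nucleotide excision repair, differed by -0.24, 0.18 and -0.03. DDB2, which finds ultraviolet damage in chromatin, differed by 0.08, -0.35 and 0.23. RRM2B, a subunit of ribonucleotide reductase that supplies nucleotides for repair, differed by -0.45, 0.03 and 0.43, and was detected on 4 of 5 HIF- and 2 of 4 SCR arrays. Another RRM2B probe, on the HumanHT-12 chip alone, was detected on all 5 arrays of replicate 3 and differed by 0.10 there. The probe of POLH, the polymerase that copies past ultraviolet damage, was under the filter and was detected on none of the 9 arrays, so no difference is given for it. A POLH probe found on the HumanHT-12 chip alone was detected on all 5 arrays of replicate 3, with a difference of 0.28 and overlapping arrays.

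The targets of metabolism, redox control and autophagy were the group with the lowest median. It was -0.07 over the 5 tested of 6, with medians of -0.06, -0.07 and -0.16 in the 3 replicates. TIGAR, which lowers fructose-2,6-bisphosphate and so slows glycolysis, measured 8.97, 8.25 and 7.70 in HIF- cells, against 9.03, 8.68 and 7.87 in SCR cells. It was lower in HIF- in each replicate, with differences of -0.06, -0.43 and -0.16 and a mean of -0.22 (standard error 0.13) with an adjusted p of 0.703 from limma (95% interval -0.52 to 0.09). Without replicate 2 the mean was -0.11. TP53INP1, a cofactor in cell death and autophagy, differed by -0.30, -0.11 and -0.02. SESN1, a sestrin that restrains mTORC1 signalling, differed by 0.17, 0.29 and -0.66, so its 2 HumanRef-8 replicates and its HumanHT-12 replicate had opposite signs. DRAM1, a lysosomal membrane protein of autophagy, differed by -0.15, -0.01 and 0.29, and TRIAP1, which carries phosphatidic acid between mitochondrial membranes, by 0.46, -0.07 and -0.34.

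MDM2, the feedback inhibitor described above, did not keep a sign. Its log2 signal was 5.95, 5.39 and 5.25 in HIF- cells, against 6.23, 5.11 and 5.21 in SCR cells. HIF- was the lower in replicate 1 and the higher in replicates 2 and 3, with differences of -0.28, 0.28 and 0.04. The mean was 0.02 (standard error 0.15, adjusted p = 0.98 from limma), and its 95% interval, -0.33 to 0.36, takes in differences of either sign. EPHA2, a receptor tyrosine kinase of ephrins, measured 7.57, 7.53 and 7.68 in HIF- cells, against 7.49, 7.38 and 7.12 in SCR cells. It was higher in HIF- in each replicate, by 0.07, 0.15 and 0.56, a mean of 0.26 with an adjusted p of 0.699 from limma.

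The p53 half-site was searched in the promoter windows of the targets, because it is the unit from which the elements that p53 binds are built. The window of 300 bases was matched to the consensus of the half-site, 10 bases long and the same on both strands, with no mismatch allowed. Of the 32 targets 26 had at least 1 window in the table, and a half-site stood in 6 of their 37 windows, against 6.63% of all 35116 windows (2329). GDF15, CDKN1A and MDM2 had none in this window, which says only that these letters are not there. Printed with their neighbours, half-sites in capitals, those of 5 targets measured here are as follows, in GRCh38.p14.
DDB2 (chr11:47214975-47215003, + strand): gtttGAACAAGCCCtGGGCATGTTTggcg
SESN1 (chr6:109009018-109009047, - strand): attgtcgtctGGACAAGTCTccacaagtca
AEN (chr15:88621296-88621325, + strand): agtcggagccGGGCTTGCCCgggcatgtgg
FAS (chr10:88991299-88991328, + strand): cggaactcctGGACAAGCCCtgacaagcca
PLK2 (chr5:58460199-58460228, - strand): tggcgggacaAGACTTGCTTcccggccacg
DDB2 held a pair of half-sites with 1 base between them, from base 6 to base 26 after the start. The other genes held 1 each, before the start: SESN1 from base -49 to -40, AEN from -34 to -25, FAS from -122 to -113 and PLK2 from -132 to -123. The DDB2 and SESN1 transcripts, whose values are given above, had means of -0.01 and -0.07, and AEN had 0.17 by the probe used. PLK2 had 0.29, but it was detected on 3 of 5 HIF- and 1 of 4 SCR arrays. Its mean is thus partly a difference from background. FAS was under the filter. FDXR, not analysed here, was the sixth target with a half-site. DDB2, SESN1 and FAS have several windows in the table, of which 1 held the match.

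Other parts of the p53 network were read from lists that were also picked by name. Of 49 further p53 targets, 38 were tested, none was called by limma in either direction, and their median was 0.05, with 25 means above 0 (65.8%, against 48.3% of all genes) and 13 below. At an unadjusted p under 0.05, 1 was higher (2.63%, against 3.41% of all genes) and 0 lower (against 4.13%), so the count did not stand above that of all genes. The gene was SESN2, a sestrin induced by p53 and by ATF4, which differed by 0.38, 0.45 and 1.08, a mean of 0.63 (standard error 0.17, adjusted p = 0.378 from limma). PRDM1, a transcriptional repressor, differed by 0.43, 0.26 and 0.18 (adjusted p = 0.661 from limma). CYFIP2, a partner of the WAVE complex, was below 0 in each replicate (adjusted p = 0.661 from limma), but it was detected on 2 of 5 HIF- arrays, against 4 of 4 SCR arrays, so no size is given. ATF3, a stress transcription factor named here after its values were seen, differed by 0.40, -0.15 and 1.60 (adjusted p = 0.671 from limma). Its HIF- technical arrays of replicate 3 ran from 7.08 to 10.12 and overlapped the SCR arrays, which ran from 5.92 to 7.38.

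Of 24 genes listed as regulators of p53 activity, 20 were tested and none was called by limma. Their median was -0.03, with medians of -0.21, -0.0025 and 0.08 in the 3 replicates. Only ATR, a kinase that answers replication stress, had an unadjusted p under 0.05 (adjusted p = 0.66 from limma), as lower, which is 5% of the 20, against 4.13% of all genes. ATR was above the detection limit on none of the HIF- arrays and on 1 of 4 SCR arrays, so no size is given. ATM, the kinase that answers DNA breaks, differed by -0.20, -0.18 and -0.08. MDM4, the partner of MDM2 in holding p53 down, differed by -0.69, 0.76 and -0.06, signs that match those of MDM2 in replicates 1 and 2. It was also named after its values were seen.

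The cell cycle genes that fall when p21 rises gave a further reading. When p21 is abundant, the DREAM complex assembles and holds genes of DNA replication and mitosis down. Of 30 such genes, 29 were tested and none was called by limma in either direction, nor at an unadjusted p under 0.05, against the 3.41% and 4.13% of all genes above. Their median was -0.04, against -0.01 for all genes, and it differed between replicates, at -0.25, 0.02 and 0.08 in replicates 1 to 3. Each replicate was also on its own BeadChip, so culture and chip cannot be told apart. In replicate 1, 7 of the 29 were above 0, in replicate 2 15 and in replicate 3 24. CDKN1A differed by 0.45 to 0.52 in these replicates, and a link between its level and these genes was not tested. On average 18 of the 29 were below 0 and 11 above. The lowest means were those of TOP2A, the topoisomerase of dividing cells, at -0.25 (-0.78, -0.07 and 0.09 in the replicates), and TTK, a spindle checkpoint kinase, at -0.25 (-0.70, -0.14 and 0.08), both named after their values were seen. AURKB and MKI67 had the smallest p-values among the genes with 1 sign in all replicates. AURKB, a mitotic kinase, differed by 0.31, 0.15 and 0.30 (adjusted p = 0.671 from limma), and MKI67, the proliferation antigen, by 0.11, 0.69 and 0.07 (adjusted p = 0.701).

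**Figure D4:**
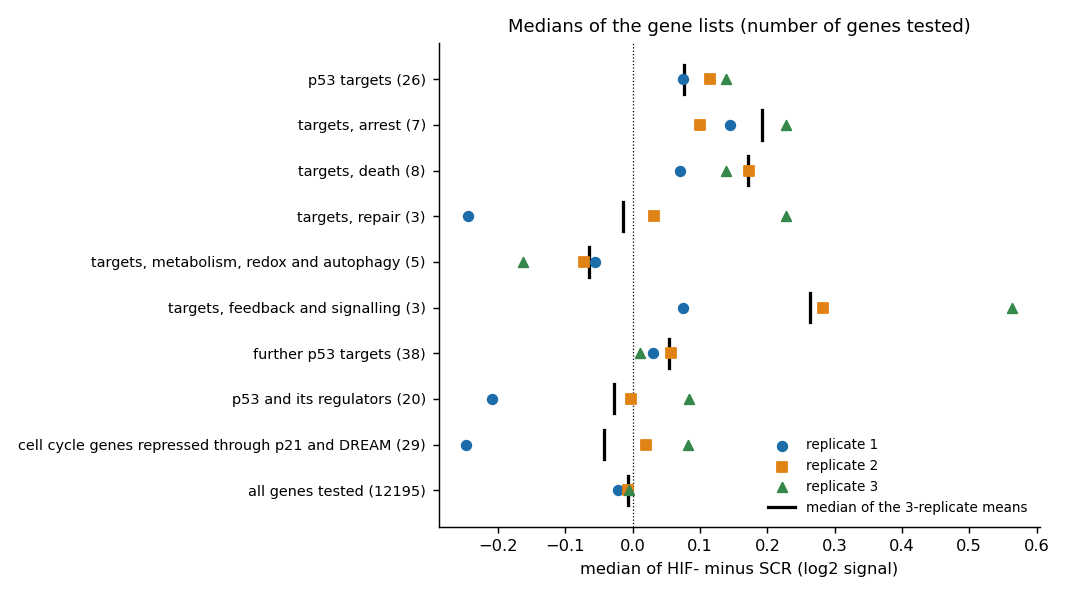
Median difference between HIF- and SCR cells in log2 signal (x axis) for each gene list (rows, with the number of genes tested). Points are the medians in each replicate and black bars the median of the 3-replicate means. The medians of the p53 targets lie between 0.07 and 0.14 in the 3 replicates, those of all genes between -0.02 and -0.01, and those of the cell cycle genes at -0.25 in replicate 1 and 0.08 in replicate 3.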

How the data were processed

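RNA of HIF- and SCR cells was hybridized on Illumina BeadChips. The authors deposited, as non-normalized tables, per-array probe signals on the log2 scale with their detection p-values, and also deposited processed log2 values. The methods name RMA and beadarray. Here the log2 signals were taken back to the linear scale, corrected with limma's nec (offset 16), quantile-normalized separately for each chip version and put on the log2 scale again, and technical arrays were averaged. Of the 24525 probes common to both versions, those below the median of the common probes in all 6 averaged samples were discarded (14686 kept), and the brightest probe stood for a gene, named by platform symbols updated through RefSeq (22317 common probes had 1 symbol, 0 several and 2208 none used).

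HIF- and SCR were compared with limma 3.58.1 (R 4.3.3), blocking on replicate, with p-values adjusted by Benjamini-Hochberg over all 12195 features. The block follows from the BeadChip, which both groups of a replicate shared, and the correlation of the 2 groups' deviations from their means was 0.623, 0.805 and 0.85 over the replicates, as a shared array version alone can also make them. The rank rule of the methods was rebuilt with each difference divided by the median absolute deviation of the 501 genes nearest in signal. The script was tested on simulated data. The genes with full values are CDKN1A, MDM2, those called or at an unadjusted p under 0.05 with 1 sign, and the member with the largest difference of 1 sign in each role. Members, lists and rules were chosen with earlier results of these data known. Promoter windows came from RefSeq (GRCh38.p14). The number of arrays limits the precision.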

Additional observations from a re-analysis of the deposited data

How the results depend on the processing

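No p53 target was called by limma under any of the alternatives tried, which changed the background correction, the normalization, the filter, the technical arrays, the block, the variance trend, the probe of a gene or the replicates, although 1 to 5 targets had an unadjusted p under 0.05 in each. The 1 (3.85%) came with no replicate block, against 2.08% of all genes in that setting, and the 5 (19.2%) without replicate 1, against 6.37%, while the reported setting gave 2 (7.69%), against 7.54%. These shares take both directions together. In the reported setting both targets were higher, as were 3.41% of all genes. The methods' t-test at an unadjusted p under 0.05 gave 1 target as higher, GDF15, and 0 after Benjamini-Hochberg. The rank rule called 1 target, GDF15, in most settings, 0 with no local spread, and 1 to 3 with a replicate left out (3, with CDKN1A and PERP, without replicate 1). The median difference of the targets, 0.08, was 0.028 with scaling to a common median, 0.13 with the first technical replicate only, and 0.069 to 0.15 with a replicate left out. The genes called over all tested, 14 (9 higher and 5 lower), were 8 with normexp at an offset of 50 (4 and 4), 50 with scaling to a common median (25 and 25), 30 with all arrays normalized together (19 and 11), 9 with the first technical replicate only, 0 with no filter on dim probes (1345 at an unadjusted p under 0.05), 4 with the filter median taken over all probes of each array version, an alternative chosen after seeing the data, and 0 to 10 with a replicate left out (0 without replicate 1, 777 at an unadjusted p under 0.05, and 4 without replicate 3). With no replicate block and the array version as covariate, 2 genes were called, and the adjusted p of GDF15 and of CDKN1A was 1.

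GDF15 and CDKN1A stayed above 0 in all 15 alternatives, with differences of 0.77 to 1.56 and of 0.46 to 0.54, and with adjusted p-values from limma of 0.0556 to 1 and of 0.172 to 1. BBC3 also stayed above 0 (0.10 without replicate 2, to 0.54) and TIGAR below (-0.30 to -0.11, -0.11 being the mean without replicate 2). MDM2 turned to -0.0042 with normexp, -0.10 with scaling to a common median and -0.045 with the authors' processed values, and ran from -0.12 (without replicate 2) to 0.16 with a replicate left out. The cause of these shifts was not tested.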
